A study of Homo sapiens and Mus musculus with 8 samples.

Results

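The piRNA pathway genes PIWIL1, PIWIL2, PIWIL4, TDRD1, TDRD9, TDRD12, MOV10L1, MAEL, FKBP6 and TEX15 were followed in small cell lung cancer cells given decitabine. They were picked by name, ignoring case, with earlier results of these data known. All 10 are among the 20863 genes listed for the human line, and 7 of the 10 are among the 16833 genes listed for the mouse line, where Piwil1, Tdrd12 and Mael were not analysed here. RNA was sequenced from NCI-H146 (H146), an established human small cell lung cancer line, and from F1339, a mouse small cell lung cancer line. Each line has 2 vehicle libraries and 2 libraries of cells given decitabine at 0.5 µM, for 96 h in H146 and for 72 h in F1339. Libraries were made in duplicate, with no statement of separate cultures, so p-values measure only the spread between these libraries, which may be technical. Each species is represented by 1 line, and the labels give no genotype for either. The study asked which programmes these cells take up when the maintenance DNA methyltransferase DNMT1, which decitabine traps and depletes, is targeted without cell killing.

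piRNAs are small RNAs of germ cells that guide PIWI proteins, the germline branch of the Argonaute family, to transposon transcripts. Tudor domain proteins bind methylated arginines of the PIWI proteins and hold them in granules where long precursors are cut, trimmed and loaded, and a nuclear branch directs DNA methylation to transposon promoters. Most of these genes are silent outside the germline, and promoters of many germline genes carry DNA methylation in somatic cells.

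The libraries carry 62462654 to 67108249 reads assigned to genes (H146) or 61364041 to 67892360 (F1339). A read is worth 0.960 to 1.08 normalized counts, the unit used throughout, which is a gene count scaled by a size factor of its library, by the authors. The median absolute log2 difference between libraries of an arm in H146 was 0.16 (vehicle) and 0.15 (decitabine), and in F1339 it was 0.30 and 0.26, so the mouse libraries of an arm differ more. All 8 neuroendocrine markers checked were listed in both lines, and their summed level in H146 was 259279 to 262608 (vehicle) and 242848 to 255864 (decitabine), against 205332 to 303437 and 172509 to 233694 in F1339. Of the markers of other cells, 2 of 2 endothelial genes were listed in each line. Their sum was 61.2 to 97.5 in H146 vehicle and 443 to 465 in H146 decitabine, and it was 12.7 to 25.9 and 65.9 to 117 in F1339. The fibroblast genes (3 of 3 listed in H146 and 2 of 3 in F1339) summed to 328 to 381 and 650.2 to 703 in H146, and to 91.7 to 97.2 and 195 to 332 in F1339. Of the 3 immune genes 1 was listed in each line, at 419 to 420.3 and 285 to 317 in H146 and at 47.5 to 99.5 and 72.7 to 101.7 in F1339. None of the 4 genes of haploid male germ cells (PRM1, PRM2, TNP1, TNP2) was listed in either line. The part of these shifts in the changes described next was not tested.

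Since decitabine acts on CpG methylation, the start regions of the genes are shown for TDRD1, MAEL, TDRD9 and TDRD12, whose rise in H146 was called under each alternative analysis that tested it, and for PIWIL1, which was well transcribed in vehicle and fell. The windows come from RefSeq (GRCh38.p14) and run from 250 bases before to 50 after the annotated start. RefSeq windows matched 7 of the 10 genes. PIWIL2, whose rise was also called under each alternative that tested it, is not among these 7. Sequences are 5′ to 3′, and capitals mark each CpG.
TDRD1, chr10:114179037-114179336, plus strand: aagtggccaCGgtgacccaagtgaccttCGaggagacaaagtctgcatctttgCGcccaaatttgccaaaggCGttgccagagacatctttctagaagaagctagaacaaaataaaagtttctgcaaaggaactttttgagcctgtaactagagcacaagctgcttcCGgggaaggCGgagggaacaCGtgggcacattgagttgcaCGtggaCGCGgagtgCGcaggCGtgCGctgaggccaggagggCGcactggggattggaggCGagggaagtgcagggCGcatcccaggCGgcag
MAEL, chr1:166989030-166989329, plus strand: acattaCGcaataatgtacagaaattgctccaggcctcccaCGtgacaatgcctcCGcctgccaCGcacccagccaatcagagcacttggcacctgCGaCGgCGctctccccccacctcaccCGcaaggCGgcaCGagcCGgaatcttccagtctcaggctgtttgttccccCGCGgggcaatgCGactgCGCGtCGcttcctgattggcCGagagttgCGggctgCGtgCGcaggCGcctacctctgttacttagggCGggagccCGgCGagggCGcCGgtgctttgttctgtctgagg
TDRD9, chr14:103928206-103928505, plus strand: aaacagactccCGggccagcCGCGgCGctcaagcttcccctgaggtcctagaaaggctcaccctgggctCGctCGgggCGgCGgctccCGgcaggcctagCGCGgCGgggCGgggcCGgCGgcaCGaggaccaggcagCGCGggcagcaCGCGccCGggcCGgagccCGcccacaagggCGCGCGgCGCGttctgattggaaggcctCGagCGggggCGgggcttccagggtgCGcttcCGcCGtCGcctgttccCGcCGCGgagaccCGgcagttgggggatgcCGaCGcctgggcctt
TDRD12, chr19:32719517-32719816, plus strand: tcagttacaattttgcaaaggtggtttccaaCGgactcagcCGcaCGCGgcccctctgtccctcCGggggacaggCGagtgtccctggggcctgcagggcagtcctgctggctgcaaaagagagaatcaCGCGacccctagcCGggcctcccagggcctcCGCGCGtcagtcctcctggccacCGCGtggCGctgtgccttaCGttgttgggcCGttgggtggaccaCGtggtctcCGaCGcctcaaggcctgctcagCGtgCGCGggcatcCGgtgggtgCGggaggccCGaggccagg
PIWIL1, chr12:130337637-130337936, plus strand: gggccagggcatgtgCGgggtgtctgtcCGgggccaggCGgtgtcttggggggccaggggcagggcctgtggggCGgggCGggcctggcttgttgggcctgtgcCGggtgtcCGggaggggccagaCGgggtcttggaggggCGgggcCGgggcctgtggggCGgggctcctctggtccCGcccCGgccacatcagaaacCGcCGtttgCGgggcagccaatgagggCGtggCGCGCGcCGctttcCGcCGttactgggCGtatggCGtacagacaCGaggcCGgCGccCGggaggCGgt

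All 5 windows hold more CpGs than the median window. There are 17 in the TDRD1 window, 26 in TDRD12, 27 in MAEL, 41 in TDRD9 and 30 in PIWIL1, while the median over all 35116 RefSeq windows of 300 bases is 14 and the quartiles are 4 and 28. MAEL has another annotated start upstream, in a window with 60 CpGs. TDRD1 has another start whose window overlaps the one shown and holds 21 CpGs. Of the matched genes not shown, MOV10L1 has 44 CpGs in its window and FKBP6 has 32. Both are above the shown windows of TDRD1, TDRD12 and MAEL. A relation between CpG count and the changes was not tested. The letters CACGTG, the E-box core, stand at positions 186 and 206 of the TDRD1 window, 226 of TDRD12 and 40 of MAEL, counted from 1 at the 5′ end. They occur in windows of 3 of the 7 matched genes and in 7.26% of all windows. The letters TCCCGC, the core of E2F sites, searched on both strands, occur in windows of 5 of the 7 genes (PIWIL1, TDRD9, TDRD12, MOV10L1, MAEL) and in 26.9% of all windows. A matched gene is counted if any of its windows holds the letters, over 9 windows for the 7 genes. The shares of all windows count each window alone, so the units differ. Both motifs contain a CpG and were searched without excluding overlaps. Methylation was not measured in these libraries.

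In H146, 8 of the 10 genes rose with decitabine, 1 fell and 1 was not called. The changes were largest for the Tudor genes TDRD9 and TDRD12, at 90.3-fold and 58.5-fold, and smallest among the risers for the co-chaperone gene FKBP6, at 1.59-fold. A call is an adjusted p under 0.05 (limma on log2(normalized count + 1), Benjamini-Hochberg over all 20783 genes with at least 10 normalized counts in at least 2 of the 4 libraries). Over all those genes, 15.4% were called higher and 12.3% lower. TDRD9, TDRD12 and MOV10L1 had under 10 normalized counts in both vehicle libraries. They passed the filter through the decitabine libraries alone, so without a rise they would not have been tested. The median log2 change of the 10 genes was 2.94, against -0.01 over all genes tested. Since the 10 genes were chosen with earlier results known, their counts and median beside all genes are description, not a test. The arms did not overlap for 8 genes with decitabine above vehicle and for 1 gene below, while 31.5% of all tested genes had decitabine above and 30.6% had it below without overlap. In bulk RNA, more cells that express a gene and more RNA per cell cannot be told apart.

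**Figure D1:**
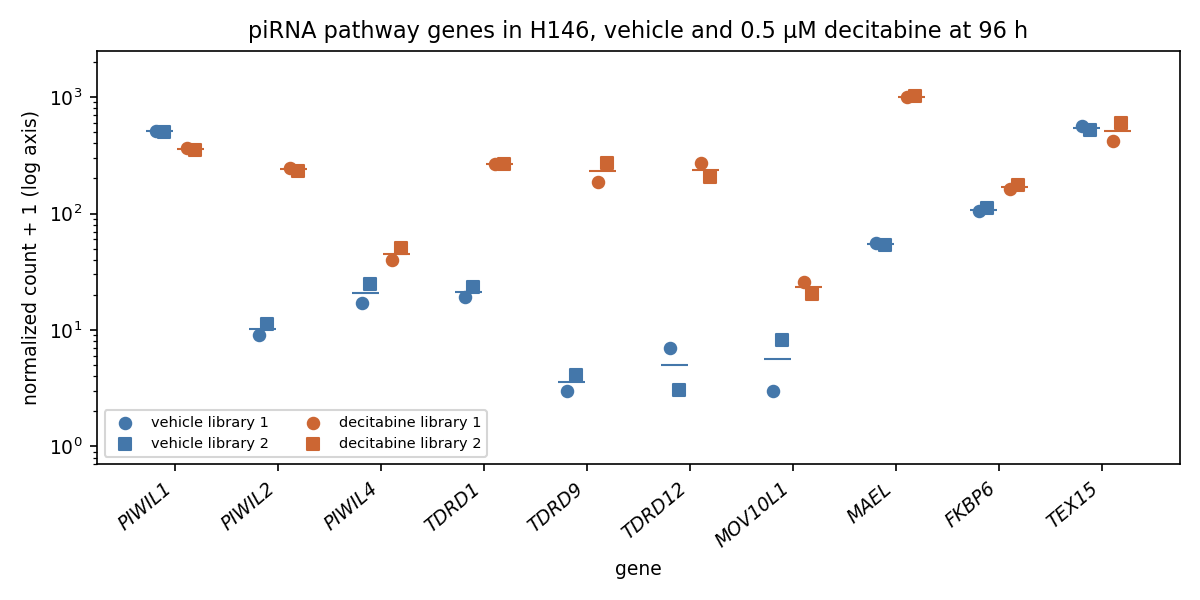
Normalized count + 1 (log axis) of each piRNA pathway gene in the 4 H146 libraries; circles and squares are libraries 1 and 2, blue is vehicle, orange is decitabine, and bars are arm means. Decitabine lies above vehicle for 8 genes, below it for PIWIL1, and the arms overlap for TEX15.

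The 3 PIWI genes moved in different ways. PIWIL2, whose mouse counterpart MILI cuts transposon transcripts early in the male germline, had 8.02 and 10.3 normalized counts in the vehicle libraries and 246 and 233 in the decitabine libraries. Both decitabine libraries were far above both vehicle libraries, with means of 9.14 ± 1.58 and 239 ± 9.31 (SD, n = 2 per arm). The ratio is 26.2 (95% counting interval 16.4 to 44.6), and the log2 change was 4.58 ± 0.31 (SE; limma adjusted p 2.0e-11).

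PIWIL4, whose mouse counterpart MIWI2 acts in the nucleus and guides DNA methylation to transposons, had 16.0 and 23.6 in vehicle and 39.0 and 49.3 in decitabine. The arms stood apart by a smaller margin, and the ratio is 2.23 (counting interval 1.52 to 3.34; limma adjusted p 0.0274). Of the merged exon bases of PIWIL4, 15% are shared with FUT4 on the same strand and 10.7% with an antisense gene, and the counting was not stated to use strand. FUT4 stood at 759 and 697 in vehicle and 656 and 593 in decitabine. PIWIL4 lost its call in DESeq2 (adjusted p 0.134), without a variance trend (0.0653) and whenever either decitabine library (0.0857 without replicate 1 and 0.245 without replicate 2) or vehicle replicate 1 (0.0979) was left out.

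PIWIL1, which binds piRNAs of later spermatogenesis, had the highest vehicle level per kb of PIWIL1, PIWIL2 and PIWIL4. It had 508 and 504 in vehicle and fell to 367 and 349 in decitabine. Both treated libraries were below both vehicle libraries, and the log2 change was -0.50 ± 0.14 (limma adjusted p 0.0106). The call ended without a variance trend in limma (adjusted p 0.0637) and when decitabine replicate 2 was left out (0.084), and with the same genes tested also without decitabine replicate 1 (0.0924).

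All 3 Tudor genes rose. TDRD1, a granule scaffold that binds MILI in mice, had 18.1 and 22.6 in vehicle and 267 and 268 in decitabine. The decitabine libraries were nearly equal, at 267 ± 0.436 against 20.3 ± 3.20, a ratio of 13.2 (counting interval 9.55 to 18.7; limma adjusted p 6.2e-11).

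TDRD9, a Tudor protein with a helicase domain that works with MIWI2 in mice, had 2.01 and 3.08 in vehicle and 187 and 272 in decitabine. The vehicle libraries together hold 5 reads and the decitabine libraries 469, so the ratio of 90.3 has a wide counting interval of 38.7 to 281. The log2 change was 6.02 ± 0.39 (limma adjusted p 1.0e-11).

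TDRD12, another Tudor and helicase protein, needed for secondary piRNAs in mice, had 6.02 and 2.05 in vehicle and 268 and 204 in decitabine. Here too vehicle was near silence, with 8 reads over the arm, and the ratio is 58.5 (counting interval 29.2 to 135; limma adjusted p 4.7e-11). Such intervals hold the counting error alone and leave out differences between cultures.

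Of MAEL, MOV10L1 and FKBP6, which act in making and loading piRNAs, MAEL reached the highest level per kb. MAEL, an HMG-box protein of the granules, had 55.2 and 52.3 in vehicle and 997 and 1021 in decitabine. The log2 change was 4.21 ± 0.17 (limma adjusted p 8.2e-16), with nearly equal libraries in each arm.

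MOV10L1, the RNA helicase that binds piRNA precursors, stayed low, with 2.01 and 7.18 in vehicle and 25 and 19.3 in decitabine. The arms stood apart at a ratio of 4.82 (counting interval 2.34 to 11.3; limma adjusted p 0.0070). The call ended in DESeq2 (adjusted p 0.0629), without a variance trend (0.0812) and without vehicle replicate 1 (0.051), and with the same genes tested also without decitabine replicate 1 (0.112) or 2 (0.0628).

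FKBP6, a co-chaperone needed for loading PIWI proteins in mice, was already present, with 103 and 109.8 in vehicle, and reached 162 and 176. The log2 change was 0.66 ± 0.21 (limma adjusted p 0.0202). It was not called in DESeq2 (adjusted p 0.0644) or without decitabine replicate 1 (0.0856) or 2 (0.173). RefSeq lists the pseudogenes FKBP6P1 and FKBP6P2, also on chromosome 7, so FKBP6 reads could be split with them.

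TEX15, which works beside MIWI2 in nuclear silencing in mice, had 567 and 526 in vehicle and 419 and 597 in decitabine. The arms overlapped, and the log2 change was -0.13 with a 95% interval of -0.44 to 0.19 (limma adjusted p 0.597).

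The rises of PIWIL2, TDRD1, TDRD9, TDRD12 and MAEL were called in every one of the 18 alternatives that tested them, which left out each library, changed the scaling or filter, or used edgeR or DESeq2. These are 5 of the 10 genes. TDRD9 and TDRD12 were tested in 16 of the 18. Without a decitabine library, TDRD9 and TDRD12 were tested only where the tested genes were held fixed. With the same genes tested, fewer of the 10 genes were called without decitabine replicate 1 or without decitabine replicate 2. The count of called genes over all tested genes also fell in both settings. In the authors' deposited table, adjusted p-values are under 0.05 for 6 of the 10 genes, and for 23.3% of all genes listed there.

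Levels were compared between genes per kilobase of merged exons (GENCODE release 29, GRCh38). In vehicle the order of mean levels ran from PIWIL1 at 95.8 ± 0.477 normalized counts per kb over TEX15 at 46.0 ± 2.45, FKBP6 at 22.5 ± 0.971 and MAEL at 17.1 ± 0.633 to PIWIL4 at 4.35 ± 1.17 and TDRD1 at 3.87 ± 0.609. PIWIL2 at 1.59 ± 0.275, MOV10L1 at 0.669 ± 0.533, TDRD12 at 0.574 ± 0.399 and TDRD9 at 0.464 ± 0.138 formed the lower end. PIWIL4 and TDRD1 did not differ beyond their spread, nor did MOV10L1, TDRD12 and TDRD9. In decitabine MAEL led at 321 ± 5.43 per kb, followed by PIWIL1 at 67.8 ± 2.44. Next came TDRD1 at 50.9 ± 0.083, TEX15 at 42.8 ± 10.6, TDRD9 at 41.9 ± 11, PIWIL2 at 41.6 ± 1.62, FKBP6 at 35.6 ± 2.06 and TDRD12 at 33.6 ± 6.46. TEX15, TDRD9 and PIWIL2 lay within each other's spread. PIWIL4 at 9.68 ± 1.59 and MOV10L1 at 3.22 ± 0.584 remained lowest. TDRD1, TDRD9, PIWIL2 and TDRD12, low in vehicle, thus lay between 33.6 and 50.9 in decitabine, a range that also holds TEX15 and FKBP6.

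In GENCODE coordinates on GRCh38, the positions of 8 of the 10 genes, each on the plus strand, are chr1:166975582-167022214 (MAEL), chr7:73328164-73358637 (FKBP6), chr10:114179270-114232304 (TDRD1), chr11:94543840-94621421 (PIWIL4), chr12:130337887-130372637 (PIWIL1), chr14:103928462-104052667 (TDRD9), chr19:32719753-32829580 (TDRD12) and chr22:50089879-50161690 (MOV10L1). Each of these is annotated as protein-coding.

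The other H146 genes whose 4 library values lay closest to those of MAEL, by Euclidean distance in log2(normalized count + 1), were IFFO1 (distance 0.50), KRT7 (0.78), CTAG2 (0.83), SRL (0.88) and PCDHB7 (1.05). IFFO1, the closest, had 58.2 and 45.2 in vehicle and 857 and 781 in decitabine. The distance covers 4 libraries of 1 line.

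In F1339 the decitabine libraries were above the vehicle libraries for Piwil2, Piwil4, Mov10l1 and Fkbp6. None of the 6 genes tested was called by limma on treatment alone, by which 0% of the 16680 genes tested were called in either direction. With the replicate number as a block, limma called 3 of the 6 and 1325 of all genes, but the labels do not pair the libraries. At an unadjusted p under 0.05 limma had 3 of the 6 genes (Piwil2, Mov10l1, Fkbp6) and 932 of all genes. edgeR also called 0 of the 6, and DESeq2 called 2, Mov10l1 and Fkbp6, where 0.462% of all genes were called higher by DESeq2 and 0.18% lower. Without overlap, decitabine was above vehicle for 4 of the 7 listed genes and for 17.9% of all tested genes. The median log2 change of the 7 listed genes was 0.61, against -0.01 over all genes tested. Piwil2, Mov10l1 and Fkbp6 passed the filter through the decitabine libraries alone, so without a rise they would not have been tested.

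**Figure D2:**
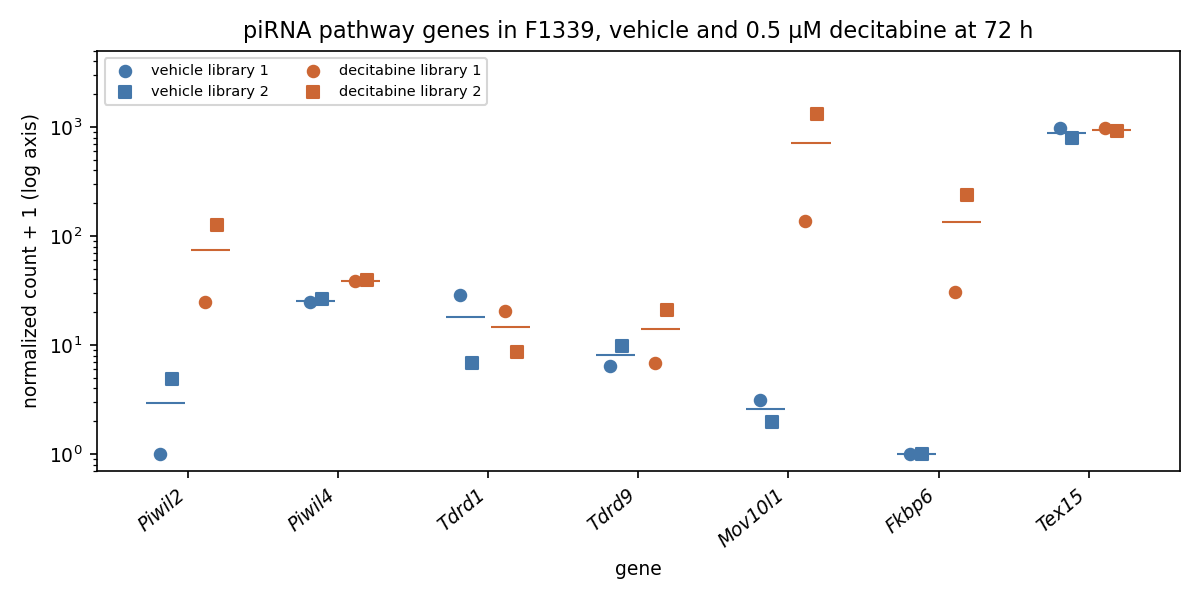
Normalized count + 1 (log axis) of the 7 listed piRNA pathway genes in the 4 F1339 libraries; circles and squares are libraries 1 and 2, blue is vehicle, orange is decitabine, and bars are arm means. Mov10l1, Fkbp6 and Piwil2 are near 0 in vehicle and higher in decitabine, with library 2 well above library 1.

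Mov10l1 had 2.16 and 0.976 in vehicle and 136 and 1302 in decitabine. The vehicle arm holds 3 reads, and the ratio of means is 458 (95% counting interval 161 to 2285). The treated libraries were thus both far above vehicle and 9.59-fold apart. The log2 change was 7.40 ± 1.14 (limma adjusted p 0.890; DESeq2 adjusted p 6.6e-09).

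Fkbp6 had 0 and 0 in vehicle and 29.5 and 239 in decitabine. No read fell on it in either vehicle library, and the summed decitabine values were 87.1-fold a floor of 3 reads over the vehicle arm. That fold rests mostly on decitabine library 2 and leaves out the spread between libraries. The treated libraries were 8.10-fold apart, and the call again differed between tools (limma adjusted p 0.890; DESeq2 adjusted p 5.8e-04).

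Piwil2 had 0 and 3.90 in vehicle and 23.6 and 125 in decitabine, a ratio of 38.0 (counting interval 13.9 to 135) on 4 vehicle reads. Its treated libraries were 5.29-fold apart. The log2 change of 4.65 ± 1.16 was not called (limma adjusted p 0.890). In the authors' deposited table the adjusted p of Piwil2 is 0.0761, that of Mov10l1 6.3e-09 and that of Fkbp6 5.7e-04, and 0.636% of all genes listed there are under 0.05.

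For these 3 genes library 2 of decitabine exceeded library 1 by 3.25 (Mov10l1), 2.98 (Fkbp6) and 2.35 (Piwil2) on the log2 scale. The median of that difference over all tested genes was 0.00. Over the 77 genes that DESeq2 called higher it was 0.96, with 69 of the 77 above 0. The part of this difference between the libraries in the piRNA pathway values was not tested.

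The other listed mouse genes had smaller differences or overlapping arms. Piwil4 had 23.8 and 25.4 in vehicle and 37.4 and 38.4 in decitabine, with close libraries in each arm, and its log2 change of 0.61 had a 95% interval of -0.42 to 1.63 (limma adjusted p 0.905). Tdrd1 had 28.1 and 5.85 in vehicle and 19.7 and 7.68 in decitabine, where library 1 was the higher in both arms. Tdrd9 had 5.40 and 8.78 in vehicle and 5.90 and 20.2 in decitabine, with 1 library at 10 or more, and was not tested. Tex15 was abundant in all libraries, at 969.7 and 793 in vehicle and 970.3 and 912 in decitabine, with a 95% interval of the log2 change of -0.40 to 0.60 (limma adjusted p 0.962).

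**Figure D3:**
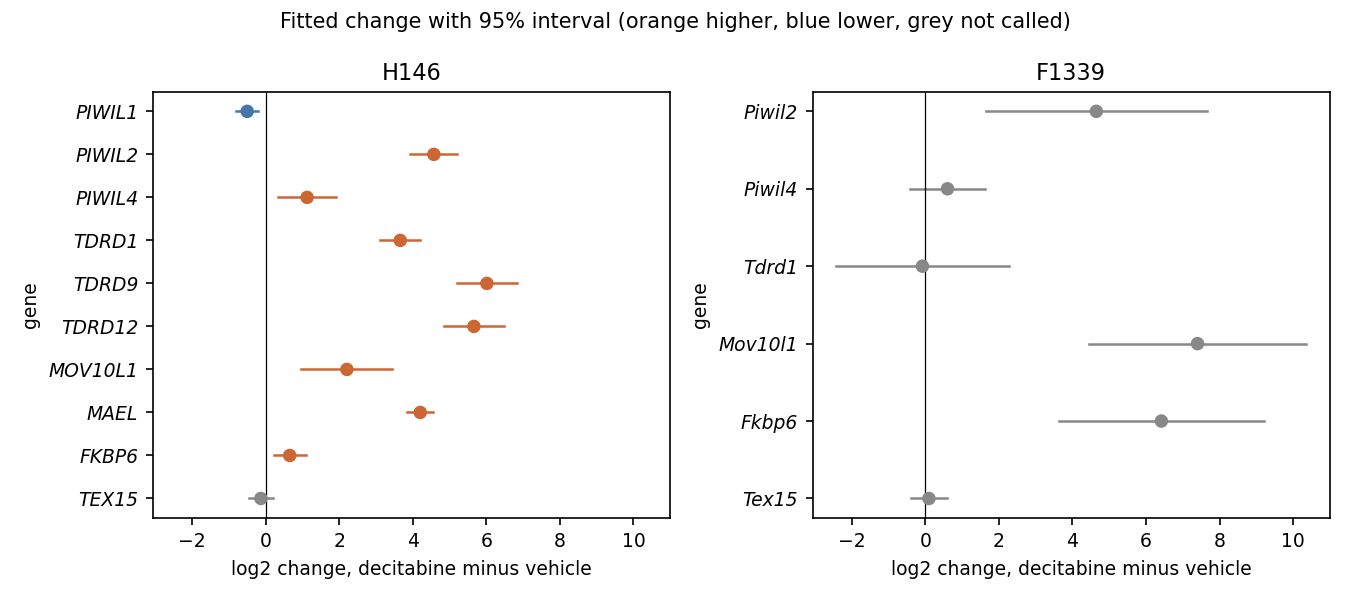
Log2 change from vehicle to decitabine of the tested piRNA pathway genes in H146 (left) and F1339 (right), with 95% limma intervals per gene, not adjusted for the number of genes; orange is called higher, blue lower and grey not called. In H146 the log2 changes run from -0.50 for PIWIL1 to 6.02 for TDRD9, and in F1339 the intervals of Piwil2, Mov10l1 and Fkbp6 lie above 0 but are several units wide.

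The change was compared between lines for the 6 genes tested in both, with a line by treatment interaction fitted over 11826 genes of matching symbol, of which 0.457% were called. Line, species and exposure time cannot be told apart in it. limma called 0 of the 6 genes, edgeR 0 and DESeq2 3. At an unadjusted p under 0.05 limma had 3 of the 6 genes and 1714 of all 11826. The share of all these genes that DESeq2 called is not given here. Piwil2, Mov10l1 and Fkbp6 in F1339 and MOV10L1 in H146 passed the filter through the decitabine libraries alone. FKBP6 changed by 0.66 in H146 and 6.42 in F1339 on the log2 scale. The difference was 5.76 with a 95% interval of 2.93 to 8.59 (limma adjusted p 0.108; DESeq2 adjusted p 5.6e-04). With 0 vehicle reads in F1339, the F1339 change of FKBP6 depends on the pseudocount, at 4.20 with 5 and 7.41 with 0.5. Over the alternatives the FKBP6 difference ran from 3.56 to 9.39. MOV10L1 differed by 5.19, from 2.21 in H146 to 7.40 in F1339 (interval 1.74 to 8.63; limma adjusted p 0.193; DESeq2 adjusted p 0.0033). TDRD1 differed in the other direction, from 3.66 in H146 to -0.08 in F1339 (difference -3.74, interval -6.18 to -1.30; limma adjusted p 0.185; DESeq2 adjusted p 0.0207). TDRD1 alone was called by limma without F1339 vehicle replicate 2 (adjusted p 0.0456). PIWIL2 changed by 4.58 and 4.65, and the interval of the difference, -3.07 to 3.22, is wide. For PIWIL4 the difference was -0.53 (interval -1.88 to 0.83) and for TEX15 it was 0.23 (interval -0.48 to 0.93).

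Of 22 other piRNA pathway genes, 13 were listed and tested in H146, of which 6 rose, 1 fell and 6 were not called, beside 15.4% of all tested genes called higher and 12.3% lower. The median log2 change of the 13 was 0.34. The other 9 (DDX4, TDRD5, TDRD6, RNF17, ASZ1, SPOCD1, MORC1, DNMT3L, EXD1) were not listed. A listed gene has at least 41 reads in total, so genes low in both arms are left out of these counts. PNLDC1 passed the filter through the decitabine libraries alone. This list too was chosen with earlier results known. PNLDC1, the exonuclease that trims piRNA ends, had 2.01 and 4.11 in vehicle and 71.0 and 86.0 in decitabine (log2 change 4.34 ± 0.47; limma adjusted p 1.1e-07). BTBD18, a nuclear factor for piRNA precursor transcription in mice, rose from 13 and 8.21 to 33.0 and 52.2, and TDRD15 from 16.0 and 12.3 to 46.0 and 49.3. PIWIL3, the remaining human PIWI gene, rose from 54.2 and 60.6 to 185 and 151, and TDRKH, a mitochondrial Tudor protein, from 1398 and 1472 to 1830.0 and 1889. PLD6, the mitochondrial nuclease that cuts piRNA precursors, fell from 3140.4 and 3071 to 1485 and 1493 (log2 change -1.06 ± 0.10; limma adjusted p 1.4e-08). Without decitabine replicate 2 the count of called genes was 3 in place of 7, and with the same genes tested it was 4 without decitabine replicate 1.

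Of 13 Argonaute and small RNA relatives of somatic cells, all tested in H146, 0 rose and 2 fell, a share near the 12.3% of all tested genes called lower, and the median log2 change was -0.06. DGCR8, the partner of DROSHA in microRNA processing, fell from 3746 and 3760 to 2724 and 2633 (log2 change -0.49; limma adjusted p 5.1e-04), and TDRD3, a Tudor protein outside the piRNA pathway, fell from 904 and 985 to 769 and 699 (log2 change -0.36; limma adjusted p 0.0281). The count was 1 without vehicle replicate 2 or without decitabine replicate 2, and with the same genes tested also without decitabine replicate 1.

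In F1339, 11 of the 22 other pathway genes were tested, and limma, edgeR and DESeq2 each called 0. Their median log2 change was 0.09, and 2 (Btbd18, Morc1) had an unadjusted limma p under 0.05. These 2 passed the filter through the decitabine libraries alone. The most abundant were Prmt5, the arginine methyltransferase that marks PIWI proteins, at 10926 and 10634 in vehicle and 10317 and 10601 in decitabine, and Tdrkh, at 6190 and 6560 in vehicle and 5293 and 6248 in decitabine. All 13 relatives were tested, each of the 3 tools called 0, 0 had an unadjusted limma p under 0.05, and their median was -0.05. Fkbp4 (80571 and 113344 in vehicle, 76663 and 89854 in decitabine) and Ago2 (13617 and 14771, then 13095 and 16340) were the most abundant.

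**Figure D4:**
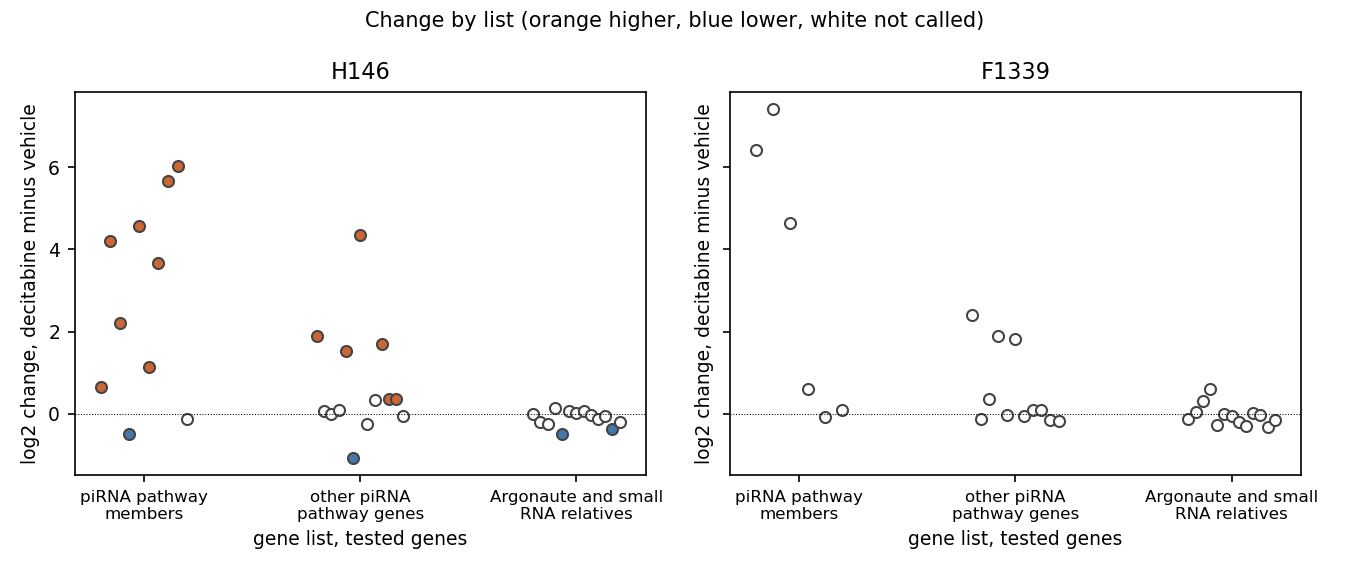
Log2 change from vehicle to decitabine for the tested piRNA pathway genes, the other piRNA pathway genes and the Argonaute and small RNA relatives in H146 (left) and F1339 (right), 1 point per gene; orange is called higher, blue lower and white not called by limma. The relatives run from -0.49 to 0.13 in H146 and from -0.31 to 0.61 in F1339. Points of the piRNA pathway genes reach 6.02 in H146 (TDRD9, 5 vehicle reads) and 7.40 in F1339 (Mov10l1, 3 vehicle reads).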

How the data were processed

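RNA of 8 libraries was measured, and libraries were grouped by line and treatment from their titles. The deposited signal values are normalized counts, made by the authors by scaling gene counts with a size factor for each library. Per the submitters' processing notes reads were handled with DESeq2, featureCounts (Subread 1.5.2), STAR 2.5.2b and Trimmomatic 0.36, named without order, with the build GRCh38 named for the mouse samples too. For strandedness and annotation, nothing was found (not given in the sources used here). The authors' deposited tables also give, per gene, an adjusted p-value, a raw p-value and a log2 fold change. By the values, the authors' fold changes run from decitabine to vehicle in H146 and from vehicle to decitabine in F1339. Whole reads were recovered, as 100% of values were whole multiples of 1 read within 0.001 read. The lowest total of reads per listed gene is 41, so lower genes were not analysed here.

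The main test was limma 3.58.1 on log2(value + 1), per line, treatment only, eBayes with a variance trend. The filter was 10 normalized counts or more in 2 or more of the 4 libraries. Ratios are of mean normalized counts, with exact 95% intervals from the reads. Alternatives were pseudocounts of 5 and 0.5, a filter of 50 or none, equal upper quartiles or totals, no variance trend, DESeq2 1.42.0 or edgeR 4.0.16 on recovered reads, a replicate block, and each library left out. Leaving out each library with the tested genes held fixed was added after seeing the data. A lone library of an arm then takes its spread from the other arm. The fits were tested on simulated data. The 10 genes and both lists were chosen with earlier results of these data known. Of each list and line, up to 6 called genes with the largest change are named, or else the 2 most abundant. Other genes named were chosen after their values were seen. Values of some marker genes are not reported here.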

Additional observations from a re-analysis of the deposited data

How the results depend on the processing

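The H146 count of 9 called piRNA pathway genes was 6 to 9 under the alternatives that kept all libraries, and 3 to 9 with 1 library left out. It was 4 without decitabine replicate 1 and 3 without decitabine replicate 2 when the filter was applied again, which leaves TDRD9, TDRD12 and MOV10L1 untested, and 5 and 5 when the same genes were tested. The 7 other pathway genes called ranged from 3 to 7 with 1 library left out, and the 2 relatives from 1 to 3, and the latter were 0 without a variance trend (the cause was not tested). In F1339, DESeq2 called 2 of the piRNA pathway genes and 107 of all genes, while limma called 0. H146 genes called in all were 5752, but 2164 without a variance trend and 2521 to 5560.0 with 1 library left out. The interaction count of 0 became 3 in DESeq2 and was 0 to 1 with 1 library left out.

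The replicate number as a block gave 3 called piRNA pathway genes in F1339 (Piwil2, Mov10l1, Fkbp6; adjusted p 0.0012, 6.6e-04 and 0.0011), 2 other pathway genes, 1325 of all genes, and an interaction count of 3, while the H146 relatives called were 1. Deviations of same-numbered libraries correlated at 0.69 across genes in F1339 and at -0.03 in H146. With 2 numbers this is a hint from the data, and the labels give the numbers no other meaning.

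Signs turned only among values that were not called. With 1 library left out the log2 change of TEX15 in H146 ranged from -0.38 to 0.13, that of Tdrd1 in F1339 from -1.12 to 0.97 (0.55 without decitabine replicate 2, and 0.01 with equal totals) and that of Tex15 in F1339 from -0.044 to 0.25. The difference between lines turned for PIWIL2 (-0.92 at pseudocount 5, and -1.07 to 1.22 with 1 library left out) and TEX15 (-0.029 to 0.48). Depth limits TDRD9, TDRD12, MOV10L1, Piwil2, Mov10l1 and Fkbp6, which have 0 to 9 reads over the vehicle arm.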

Other observations

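Among mouse piRNA pathway genes outside the rule for naming, chosen after their values were seen, Btbd18 had 6.48 and 3.90 normalized counts in F1339 vehicle and 20.6 and 47.0 in decitabine, and Pnldc1 had 4.32 and 15.6 in vehicle and 22.6 and 45.1 in decitabine. BTBD18 and PNLDC1 were both called higher in H146. Morc1, which represses transposons in the mouse male germline, had 6.48 and 2.93 in vehicle and 13.8 and 26.9 in decitabine. Decitabine was above vehicle without overlap for these 3 genes, as for 17.9% of all tested genes. Since the 3 were picked by their values, this is description, not a test. Btbd18 and Morc1 had under 10 normalized counts in both vehicle libraries and passed the filter through the decitabine libraries alone. Ddx4, the germline helicase VASA, had 0 and 1.95 in vehicle and 1.97 and 45.1 in decitabine, so 1 treated library carried nearly all of its reads, and it was not tested.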
